A study of Mus musculus with 46 samples.

Results

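The 9 genes described here encode enzymes of the citric acid cycle: Cs, Idh3a, Idh3b, Idh3g, Ogdh, Suclg1, Suclg2, Fh1 and Mdh2. They were chosen by name, with earlier results of these data known, and are 9 of the 55487 genes listed in the count tables. All 9 passed the filter on low counts in every experiment, and the lowest count of any of them in any library was 283 reads, for Suclg2 in an islet library labelled Clec KO on HFD. The cycle runs in the mitochondrial matrix. Acetyl-CoA joins oxaloacetate to make citrate, a chain of oxidations releases carbon dioxide and loads NADH and FADH2 for the respiratory chain, and oxaloacetate is made again at the end. In pancreatic beta cells the cycle couples glucose oxidation to insulin release, and in hepatocytes it also supplies intermediates for gluconeogenesis and amino acid metabolism. All of its enzymes are encoded in the nucleus, so none of the 9 genes is a direct transcription target of Tfam, the protein that packages and transcribes mitochondrial DNA.

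The study sequenced total RNA from mouse islets of Langerhans and from mouse liver in 46 libraries that fall into 11 groups and 3 experiments. In the first, islets came from Tfam controls (5 female and 3 male samples) and from Tfam KO mice (4 female and 2 male). In the second, islets came from Clec controls (6 samples on HFD, 4 on RFD) and from Clec KO mice (5 on HFD, 4 on RFD), which the series text names as Clec16aKO; the labels do not write out either diet. In the third, livers came from controls (6), from mice lacking both mitofusins (Mfn DKO, 4) and from Tfam KO mice (3), and the same 6 controls serve both comparisons. The labels give neither an age, nor the promoter or Cre driver behind each deletion. They also leave out the sex of the Clec and liver samples, and the series text mentions only that males and females entered the study. The liver descriptions carry the letters AAV for every group, controls included, with no explanation. Islets were kept in culture overnight and livers were flash frozen. The labels number the samples as biological replicates. If any of them came from the same animals, p-values measure only the spread between samples.

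Total counts ran from 55223041 to 83342809 per library for Tfam islets, from 16235173 to 55810879 for Clec islets and from 41961114 to 56894510 for livers. Tfam transcript was lower in every Tfam KO library: 17.4 ± 1.2 CPM (counts scaled to library size, SD, n = 4) in KO females against 40.2 ± 2.7 (n = 5) in control females, and 13.1 to 15.9 CPM in the 3 Tfam KO livers against 54.2 to 66.2 in the controls. In Mfn DKO livers the log2 fold change was -2.003 for Mfn1 and -2.04 for Mfn2. Clec16a transcript was not lower in the islets labelled Clec KO, with log2 fold changes of 0.13 on RFD and 0.08 on HFD. Gene-level reads can lie outside a deleted part and then check nothing, so directions in that experiment rest on the labels alone. The beta cell markers Ins1, Ins2 and 6 others were present in every islet group, while Ins1 was at 0 in every liver library. Hepatocyte markers summed to between 22362 and 136593 CPM in the livers. Xist counts put both sexes in every liver group, and all 19 Clec islet libraries were Xist-positive.

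Transcript levels between genes were compared on the deposited TPM (transcript levels scaled for gene length and library size). In control female islets of the Tfam experiment the order ran from Ogdh at 104 ± 21 TPM (SD, n = 5) down to Idh3a at 22.4 ± 3.8. Between them lay Fh1 (80.9 ± 35.8), Mdh2 (79.4 ± 8.5), Idh3g (69.0 ± 7.5), Idh3b (44.1 ± 4.6), Suclg1 (38.3 ± 4.5), Cs (27.7 ± 4.4) and Suclg2 (24.6 ± 2.9). Among neighbours in that order, Idh3g lay apart from Idh3b and Suclg1 apart from Cs, whereas the libraries of all other neighbours overlapped. The wide spread of Fh1 came from values between 83.6 and 225.6 CPM in the 5 libraries.

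Control liver had another order of levels. Fh1, the fumarase that hydrates fumarate to malate, stood highest at 189 ± 20 TPM (SD, n = 6), followed by Idh3b at 156 ± 5 and Suclg2 at 144 ± 16. Suclg1 (131 ± 7) and Mdh2 (131 ± 8) came next, then Ogdh (80.6 ± 9.6), Idh3g (73.7 ± 2.2), Cs (41.8 ± 0.7) and Idh3a (22.8 ± 2.9). Mdh2 and Ogdh did not overlap there, nor did Idh3g and Cs or Cs and Idh3a. Suclg2 thus ranked 3 of 9 in control liver and 8 of 9 in control female islets of the Tfam experiment, and it was the lowest of the 9 in Clec control islets on RFD at 11.6 ± 1.0 TPM (n = 4). Tissue and experiment changed together between these groups and cannot be told apart, so the orders are given as a description.

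**Figure D1:**
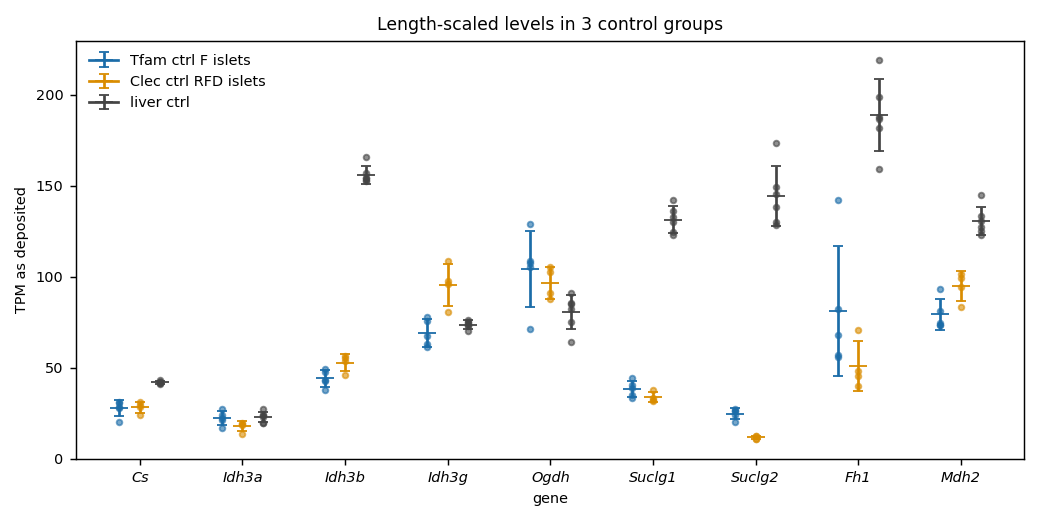
Deposited TPM of the 9 genes on a linear axis from 0 in 3 control groups (female Tfam islets, Clec islets on RFD, liver), with 1 point per library and bars for the mean and SD. Suclg2, Suclg1, Idh3b, Fh1, Mdh2 and Cs lie higher in every control liver than in any library of the islet groups, while the libraries of Idh3a, Idh3g and Ogdh overlap between liver and islets.

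The sequence before a RefSeq start site is shown for Cs, Mdh2 and Suclg2. In Tfam KO liver the first 2 were called higher and Suclg2 lower. The Suclg2 call there was lost in 7 of the 9 fits that left out 1 library. In the mouse build GRCm38 Cs lies on the plus strand at chr10:128337734-128362479, Mdh2 on the plus strand at chr5:135778480-135790398 and Suclg2 on the minus strand at chr6:95473009-95718800. RefSeq (GRCm38.p6) windows of 250 bases before and 50 after a start were at hand for 8 of the 9 genes, and for Idh3a none was. They were searched on both strands for AAGGTCA (the site named for estrogen-related receptors, read TGACCTT on the other strand), GCGCANG (the core named for NRF1, CNTGCGC on the other strand) and CCGGAAG (the core named for GABP and other ETS factors, CTTCCGG on the other strand). Of all 32851 windows of 300 bases, 4.72 percent held the first, 16.6 percent the second and 8.86 percent the third. The NRF1 core stood once in the Mdh2 window and in 3 of the 6 Ogdh windows, 1 of which also held the receptor site, and the ETS core stood once in those of Idh3b and Idh3g. The Ogdh windows that start at chr11:6292308 and chr11:6292329 overlap and hold the same NRF1 match, so they are not separate sites. None of the 3 strings was in the windows of Cs, Suclg1, Suclg2 or Fh1. A match is a description of letters and not of binding. The 250 bases before the start of Cs (chr10:128337477-128337726, plus strand) and of Suclg2 (chr6:95718847-95719096, minus strand) are given in lower case throughout since no string matched. The stretch of 30 bases from Mdh2 (chr5:135778599-135778628, plus strand) has the NRF1 core in capitals, in its minus-strand reading, 39 bases before the RefSeq start. The span of Mdh2 given above begins earlier, at chr5:135778480, so the stretch lies inside that span and is upstream only of the RefSeq start.
Cs: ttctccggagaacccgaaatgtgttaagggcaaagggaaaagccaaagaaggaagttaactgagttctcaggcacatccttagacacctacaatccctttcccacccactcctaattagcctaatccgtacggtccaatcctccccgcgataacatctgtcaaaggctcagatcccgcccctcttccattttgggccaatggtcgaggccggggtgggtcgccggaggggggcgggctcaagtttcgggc
Suclg2: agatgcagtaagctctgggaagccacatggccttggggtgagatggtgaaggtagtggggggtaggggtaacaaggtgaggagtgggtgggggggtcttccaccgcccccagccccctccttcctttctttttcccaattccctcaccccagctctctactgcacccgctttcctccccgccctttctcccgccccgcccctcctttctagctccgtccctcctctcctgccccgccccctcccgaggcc
Mdh2: ggctcaagcttCTTGCGCttctctcgcgag

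Loss of Tfam in islets moved 3 of the 9 genes, all of them upward: Suclg2, Idh3a and Cs. With both sexes in the model, a gene was called where its adjusted p did not exceed 0.05, and 20.9 percent of the 19752 genes tested were, 11.6 percent as higher and 9.29 percent as lower. Suclg2, the GTP-forming beta subunit of succinate-CoA ligase, stood alone in having no overlap between the KO and control libraries, which was the case for 7.49 percent of all genes tested. The median log2 fold change of the 9 genes was 0.08, beside -0.01 for all genes tested.

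The first step of the cycle is catalysed by citrate synthase, the product of Cs. Its transcript was at 77.0, 72.5, 84.7, 70.1 and 73.6 CPM in the control females and at 83.0, 83.3, 90.02 and 90.3 in the KO females. It was at 84.5, 79.8 and 75.7 CPM in the control males and at 88.0 and 89.7 in the KO males. All 6 KO libraries lay at 83.0 CPM or above, a level that 2 of the 8 control libraries also reached. Cs rose with a log2 fold change of 0.18 ± 0.05 (SE; edgeR's quasi-likelihood test with Benjamini-Hochberg adjustment, adjusted p = 0.022). The call was lost without Tfam KO female 3 (0.17, edgeR adjusted p = 0.0565, with 17.5 percent of all genes called) and without Tfam KO male 2 (0.18, edgeR adjusted p = 0.0522, with 14.9 percent called). It was also lost without Tfam KO female 4 (0.17, edgeR adjusted p = 0.0562, with 17.9 percent called) and with no filter on low counts (0.18, edgeR adjusted p = 0.0607).

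The NAD-dependent isocitrate dehydrogenase that makes 2-oxoglutarate is built from the catalytic subunit Idh3a and the partner subunits Idh3b and Idh3g. Idh3a was at 47.1, 50.9, 65.2, 51.9 and 54.7 CPM in control females, and at 56.6, 61.0, 72.8 and 67.0 in KO females. In males it was at 54.1, 54.2 and 52.9 CPM in controls and at 61.0 and 70.0 in KO islets. A single control library, female 3, reached into the KO range. Idh3a rose by 0.27 ± 0.07 on the log2 scale (SE; edgeR adjusted p = 0.017), a call lost without Tfam KO female 3 (0.23, edgeR adjusted p = 0.0503) and without Tfam KO male 2 (0.24, edgeR adjusted p = 0.0602). The partner subunits did not pass the test, with log2 fold changes of 0.09 ± 0.05 for Idh3b and -0.00 ± 0.09 for Idh3g. Idh3b lay between 64.1 and 77.7 CPM in the controls and between 73.0 and 80.0 in the KO islets.

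Ogdh encodes the E1 component of the 2-oxoglutarate dehydrogenase complex, which makes succinyl-CoA. It was at 249.3, 262.4, 329.4, 233.5 and 268.1 CPM in control females and at 212.7, 248.1, 252.9 and 246.6 in KO females. In males the controls were at 269.7, 303.4 and 275.6 CPM and the KO islets at 241.5 and 259.1. The log2 fold change over both sexes (-0.17 ± 0.07) did not pass the test (edgeR adjusted p = 0.13). Without control female 4 it was -0.20 and passed (edgeR adjusted p = 0.0480, with 25.3 percent of all genes called), and on total counts with no TMM scaling (trimmed mean of M values) it was 0.04.

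Succinate-CoA ligase turns succinyl-CoA into succinate and makes GTP or ATP on the way. Suclg1 encodes its alpha subunit, which pairs either with the GTP-forming beta subunit encoded by Suclg2 or with the ATP-forming one encoded by Sucla2. Suclg2 was at 48.0, 53.6, 59.5, 55.6 and 54.2 CPM in control females and at 89.7, 76.9, 82.7 and 83.6 in KO females. In males it was at 42.4, 50.3 and 54.9 CPM in controls and at 75.4 and 85.7 in KO islets. Every KO library stood above every control library, in females and in males. Suclg2 rose 1.57-fold, a log2 fold change of 0.65 (95% interval 0.52 to 0.78, edgeR adjusted p = 3.71e-06). The fold change was 0.62 ± 0.08 on the log2 scale in females (edgeR adjusted p = 0.000192) and 0.71 ± 0.11 in males (edgeR adjusted p = 0.00111). The sexes differed in this change by 0.09 ± 0.14 (log2, SE), which did not pass the test of the difference (edgeR adjusted p = 0.97). Suclg2 was the 1 member called in females, where 10.8 percent of genes were called, and the 1 member called in males, where 8.93 percent were. Without control female 3, Cs (0.24) and Idh3a (0.33) were also called in females, beside 10.8 percent of all genes. In these bulk samples fewer cells of a type and less RNA per cell cannot be told apart.

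The partners of Suclg2 did not share its rise. Suclg1 lay between 69.3 and 107.0 CPM in the controls and between 78.0 and 97.5 in the KO islets (log2 fold change 0.08 ± 0.10, edgeR adjusted p = 0.65). The ratio of Suclg2 to Sucla2 in TPM was 0.509, 0.556, 0.589, 0.507 and 0.532 in control females, and 0.915, 0.794, 0.758 and 0.771 in KO females. In males it was 0.448, 0.501 and 0.5263 in controls against 0.810 and 0.835 in KO islets. The GTP-forming subunit was thus at about 0.8 transcripts for each ATP-forming one in KO islets and at about 0.5 in controls, with no overlap in either sex.

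**Figure D2:**
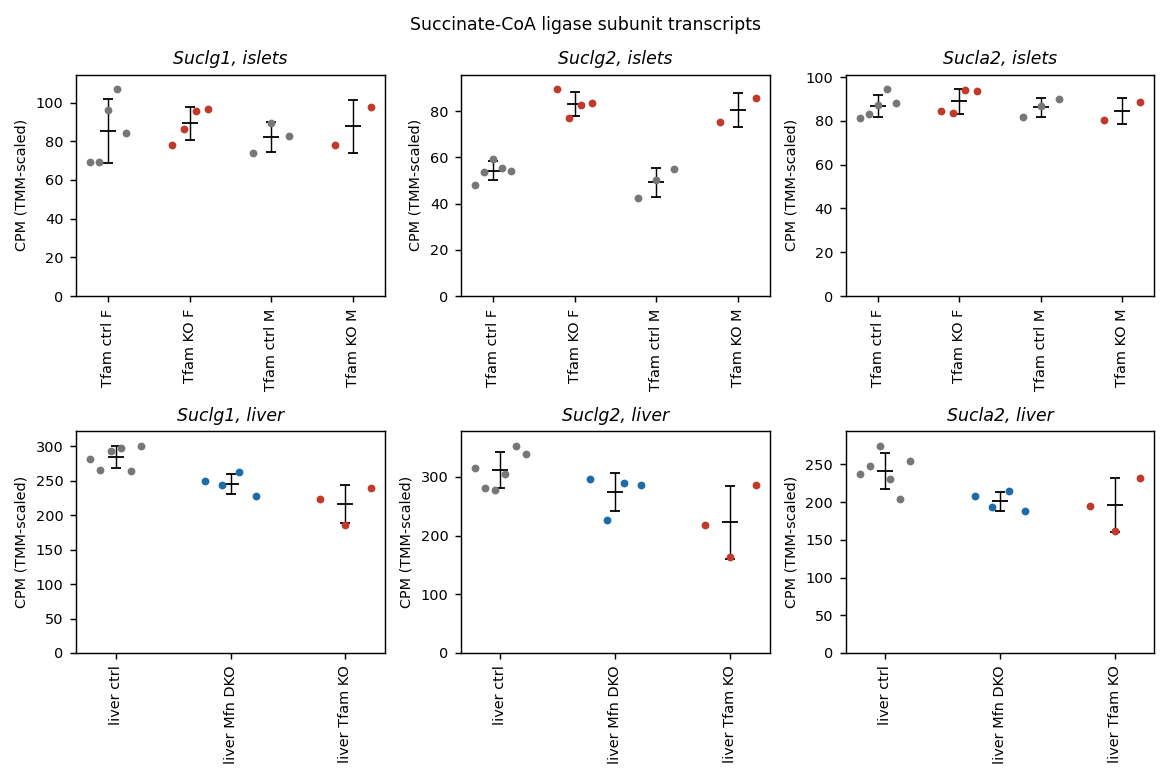
Levels of Suclg1, Suclg2 and Sucla2 per library in CPM from 0, in the 4 groups of Tfam islets (top) and the 3 liver groups (bottom), with bars for the mean and SD. The 6 Tfam KO islet libraries of Suclg2 (75.4 to 89.7 CPM) sit above the 8 controls (42.4 to 59.5).

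The last steps of the cycle showed no called change in Tfam KO islets. Fh1 was at 83.6, 84.5, 225.6, 138.3 and 126.5 CPM in control females, and at 76.9, 114.4, 111.9 and 122.1 in KO females. Its log2 fold change over both sexes was -0.32 ± 0.20 (edgeR adjusted p = 0.28), and its control libraries had the widest spread of the 9 genes relative to the mean. Mdh2, the mitochondrial malate dehydrogenase that regenerates oxaloacetate, was at 118.8, 133.4 and 122.2 CPM in control males and at 130.8 and 140.1 in KO males, with a log2 fold change of 0.03 ± 0.08 over both sexes (edgeR adjusted p = 0.83). None of the 9 genes differed between the sexes in the size of the KO change. No gene at all was called in that test by edgeR (0.0 percent of 19752), although 1230 had an unadjusted p under 0.05 and the DESeq2 Wald test called 34, none of them a member.

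Markers of several cell types moved with these results, in a comparison where 20.9 percent of all genes tested were called. All 8 genes of the beta cell list fell in Tfam KO islets, with summed levels of 188248 to 294921 CPM in the controls and 105621 to 141285 in the KO islets, and none of the 8 was at 0. Both delta cell markers fell as well (Sst by 0.53 and Hhex by 0.36 on the log2 scale), with summed levels of 2278 to 7257 CPM in the controls and 2378 to 3461 in the KO islets. Of 5 fibroblast markers 2 rose (19.05 to 55.0 CPM summed in controls, 34.8 to 69.9 in KO islets), as did 1 of 6 macrophage markers (106 to 192 CPM and 120 to 186). Of 12 acinar markers 1 fell, and of 4 duct markers 1 rose and 1 fell. No marker of these lists was at 0 in a whole group. Their part in the values of Suclg2, Idh3a and Cs was not tested. The scaling of the libraries also moved with group. On total counts without TMM the median of all genes was at 0.20 on the log2 scale, 34.6 percent of genes and 7 of the 9 members were called, and Suclg2 was at 0.86. Fold changes given here are therefore relative to the bulk of genes in the library.

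In Clec KO islets none of the 9 genes passed the test on either diet. On RFD 7.52 percent of the 17254 genes tested were called and the members' median log2 fold change was 0.02, beside -0.00 for all genes. On HFD 9.57 percent were called, and the medians were -0.11 and -0.00. Cs on RFD was the 1 member whose groups did not overlap, where 15.1 percent of all genes tested did not; on HFD no member and 2.6 percent of all genes were without overlap. At an unadjusted p under 0.05 edgeR gave 1 member on RFD (Cs) and 1 on HFD (Suclg2), and the DESeq2 Wald test called Cs on RFD and no member on HFD.

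Cs on RFD was at 81.0, 75.5, 80.9 and 75.5 CPM in the controls and at 99.0, 86.1, 89.2 and 95.5 in the islets labelled Clec KO. All 4 libraries labelled KO stood above the controls, but the log2 fold change of 0.24 ± 0.08 did not pass the test (edgeR adjusted p = 0.0693). Within the sequencing lanes that the file names give, the difference of Cs was 0.27 on the log2 scale in lane 7 (3 KO against 2 controls) and 0.14 in lane 8 (1 against 2). On HFD the controls ran from 78.3 to 92.8 CPM with a median of 82.0, and the KO-labelled libraries were at 96.5, 92.3, 93.2, 80.9 and 84.3, so that the groups overlapped (log2 fold change 0.10 ± 0.07).

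Suclg2 was low in all Clec islets, and here the KO-labelled libraries did not lie above the controls. On RFD it was at 28.8, 26.9, 22.9 and 24.9 CPM in controls and at 19.04, 21.5, 21.97 and 28.0 under the KO label. On HFD the controls ran from 24.2 to 30.3 CPM with a median of 27.0, against 23.7, 19.7, 21.6, 29.02 and 17.2. The fourth of these, Clec KO HFD replicate 4, was the 1 KO-labelled library on HFD inside the control range. With it the log2 fold change was -0.28 ± 0.12 (edgeR adjusted p = 0.16). Without it Suclg2 was lower and passed the test at -0.39 ± 0.11 (edgeR adjusted p = 0.0153), the 1 member called when 20.0 percent of genes were. The ratio of Suclg2 to Sucla2 stayed between 0.308 and 0.406 in all 19 libraries of this experiment.

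The isocitrate dehydrogenase subunits gave values with overlapping groups. On HFD Idh3a was at 44.5, 41.6, 42.3, 42.4 and 37.7 CPM under the KO label, within or just below a control range of 39.8 to 55.9 (log2 fold change -0.19 ± 0.10, edgeR adjusted p = 0.30). Idh3b was at 77.8, 81.2, 78.3, 85.5 and 85.0 CPM, beside 83.6 to 95.1 in the controls (-0.11 ± 0.06, edgeR adjusted p = 0.31). Idh3g and Ogdh differed by 0.03 or less on HFD in either direction.

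Fh1 was the member with the largest diet difference. Among islets labelled Clec KO it was at 82.8, 103.1, 84.3 and 125.4 CPM on RFD and at 98.8, 74.1, 70.2, 68.5 and 54.7 on HFD. The groups overlapped through the first HFD library, and the log2 difference of -0.43 ± 0.18 had an unadjusted p of 0.029 in edgeR's test but an adjusted p of 0.82. Between diets, 0.0116 percent of all genes were called in KO-labelled islets and 0.0406 percent in controls, and no member was called in either. The KO change did not differ between the diets for any of the 9 genes beyond the test (0.0 percent of all genes called by edgeR, 406 genes but no member at an unadjusted p under 0.05, 20 genes but no member by the DESeq2 Wald test).

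**Figure D3:**
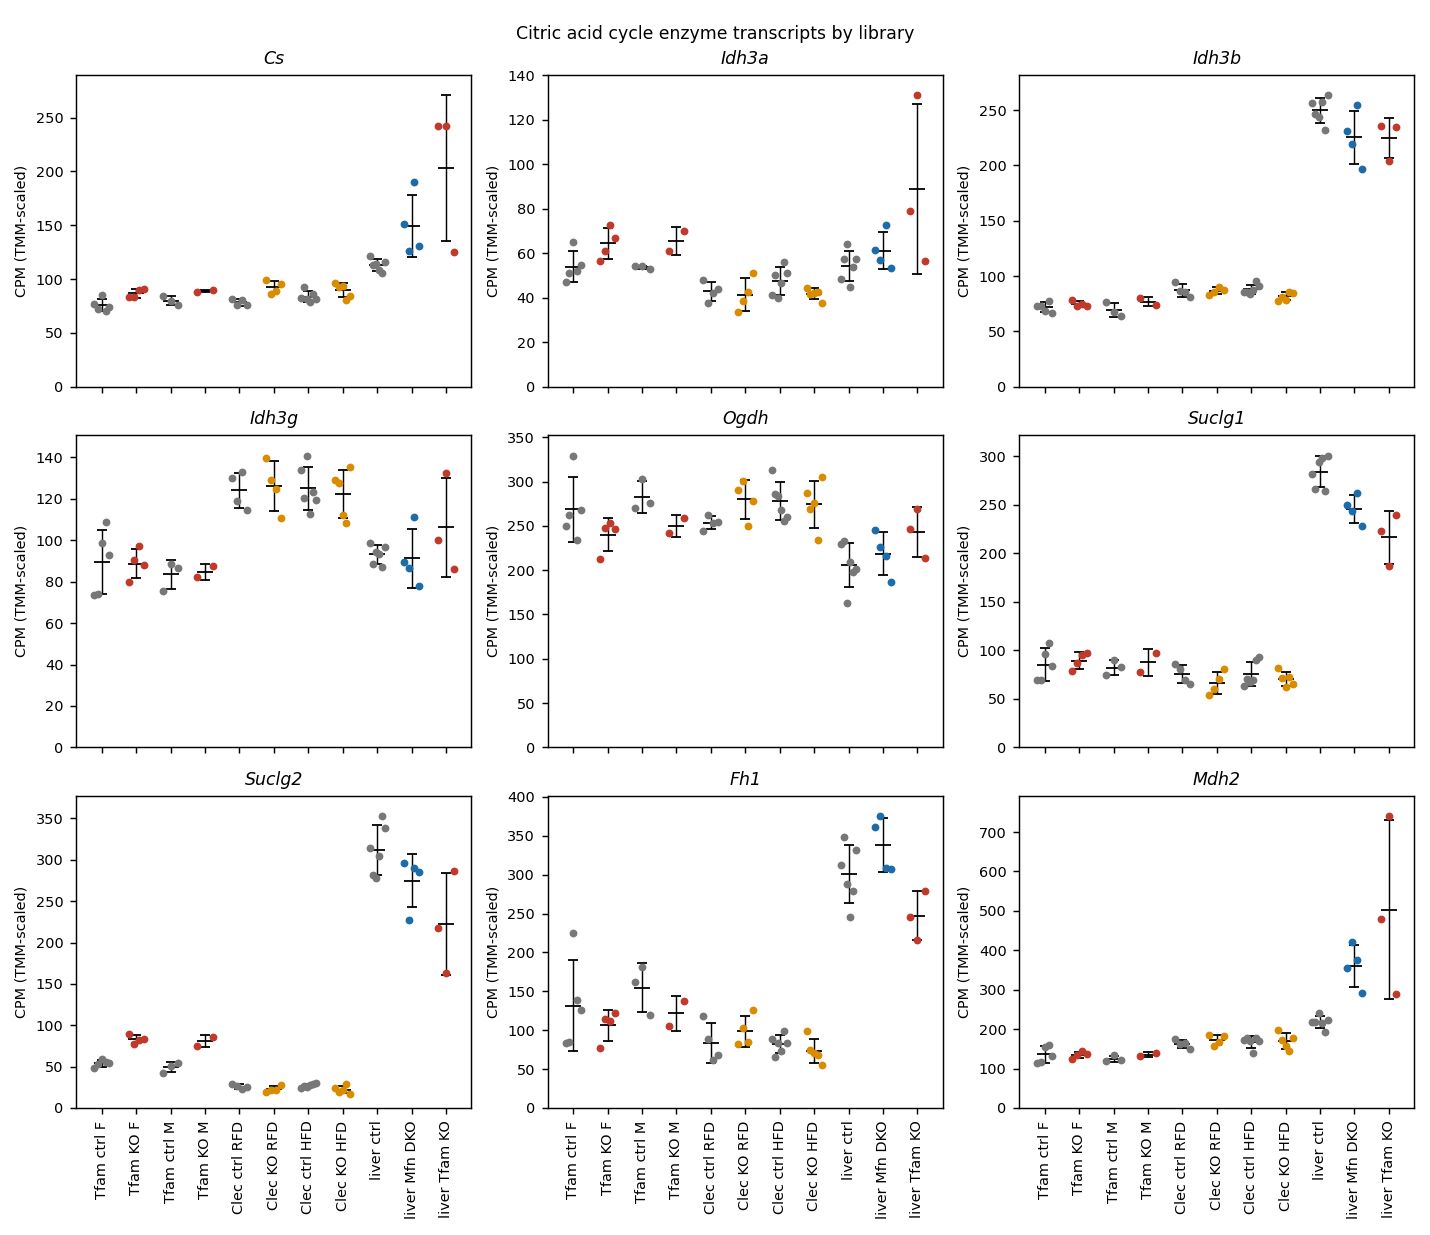
Levels of the 9 genes in CPM per library, 1 panel per gene and 1 point per library in each of the 11 groups, with bars for the mean and SD and axes that start at 0; libraries were scaled within each experiment, so levels are compared within one. Within the livers, Mdh2 and Cs have their highest libraries in the Tfam KO group, at 740.0 and 242.4 CPM.

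In liver, loss of Tfam moved 5 of the 9 genes and not all one way: Mdh2, Cs and Idh3a rose, and Suclg1 and Suclg2 fell. In this comparison 29.3 percent of the 17024 genes tested were called, 18.1 percent as higher and 11.3 percent as lower. The members' median log2 fold change was 0.19, beside 0.03 for all genes. Loss of both mitofusins moved 1 member, Mdh2, which rose, where 9.87 percent of genes were called, 5.23 percent as higher and 4.64 percent as lower. The members' median was 0.09 and that of all genes 0.02. Both comparisons use the same 6 controls, so their values are given side by side and are not independent.

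Mdh2 ranged from 193.1 to 240.9 CPM in the 6 controls, with a median of 218. It was at 354.5, 420.7, 374.7 and 292.0 CPM in the Mfn DKO livers and at 480.3, 740.0 and 289.7 in the Tfam KO livers. All 7 knockout livers stood above all controls, and Tfam KO replicate 2 stood highest. Mdh2 rose 2.31-fold in Tfam KO liver, a log2 fold change of 1.21 (95% interval 0.78 to 1.63, edgeR adjusted p = 0.00259). In Mfn DKO liver it rose 1.65-fold, a log2 fold change of 0.73 (95% interval 0.33 to 1.12, edgeR adjusted p = 0.0407). The Mfn DKO call was lost in each of the 10 fits that left out 1 of its libraries, with log2 fold changes of 0.64 to 0.80 and edgeR adjusted p of 0.0558 to 0.118, and with no filter on low counts (edgeR adjusted p = 0.0565). Within the livers with Xist above 10 CPM the Mfn DKO difference was 0.70 (2 against 3 libraries), and within the others it was 0.73.

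Cs ranged from 105.7 to 121.8 CPM in control livers, with a median of 114. It was at 150.8, 126.0, 189.9 and 130.5 CPM in Mfn DKO livers and at 242.3, 242.4 and 124.8 in Tfam KO livers. No knockout liver overlapped the controls, but Tfam KO replicate 3 lay only just above them. Cs rose in Tfam KO liver by 0.84 ± 0.19 on the log2 scale (edgeR adjusted p = 0.00696), and its log2 fold change in Mfn DKO liver, 0.40 ± 0.18, did not pass the test (edgeR adjusted p = 0.16) except when only the compared groups were fitted. Cs, Suclg1 and Mdh2 were the 3 members without overlap in each comparison, where 19.2 percent of all genes had none in Mfn DKO and 20.9 percent in Tfam KO liver.

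Idh3a ranged from 44.7 to 63.9 CPM in control livers, with a median of 55.4, and was at 79.2, 131.1 and 56.6 in Tfam KO livers. Replicate 3 lay inside the control range while replicates 1 and 2 were above it. Idh3a rose by 0.72 ± 0.21 on the log2 scale (edgeR adjusted p = 0.0215), but without replicate 2 the value was 0.33 and the call was lost (edgeR adjusted p = 0.197), as it was with only the compared groups (0.70, edgeR adjusted p = 0.0531). Its partners in the enzyme did not pass the test in Tfam KO liver: Idh3b had a log2 fold change of -0.15 ± 0.11 and Idh3g one of 0.19 ± 0.14. The ratio of Idh3a to Idh3b in TPM averaged 0.147 ± 0.022 in control liver (SD, n = 6), 0.183 ± 0.007 in Mfn DKO liver (n = 4) and 0.274 ± 0.141 in Tfam KO liver (n = 3). It was 0.226, 0.433 and 0.163 in Tfam KO replicates 1, 2 and 3, and replicate 3 lay inside the control range of 0.117 to 0.177. The Mfn DKO livers ran from 0.176 to 0.193 and overlapped the controls.

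Suclg1 and Suclg2 were both called lower in Tfam KO liver. Suclg1 also pairs with Sucla2, whose log2 ratios to the control mean were -0.31, -0.57 and -0.05 in Tfam KO replicates 1, 2 and 3. Suclg1 ranged from 264.0 to 300.5 CPM in the controls, with a median of 288, and was at 223.0, 186.4 and 239.4 in Tfam KO livers, without overlap. It fell by 0.39 on the log2 scale (SE 0.12, edgeR adjusted p = 0.0247), and it was at 249.1, 243.9, 262.2 and 227.6 CPM in Mfn DKO livers (log2 fold change -0.21 ± 0.11, edgeR adjusted p = 0.22). Suclg2 ranged from 277.9 to 352.6 CPM in the controls, with a median of 309, and was at 217.8, 163.4 and 286.7 in Tfam KO livers. Replicate 3 lay inside the control range. Suclg2 fell by 0.49 on the log2 scale (SE 0.17, edgeR adjusted p = 0.0496), a call that sits at the threshold. It was lost in 7 of the 9 fits that left out 1 library: without Tfam KO replicate 1 or 2 and without control replicate 1, 2, 4, 5 or 6. In these fits its log2 fold change ran from -0.30, without Tfam KO replicate 2, to -0.52, and the edgeR adjusted p from 0.0571 to 0.203. It was also lost with no filter on low counts (edgeR adjusted p = 0.0934), with only the compared groups (0.0899) and with sex from Xist as a term (0.0576). The call of Suclg1 was lost without Tfam KO replicate 1 (edgeR adjusted p = 0.0583) or replicate 2 (0.0858), with no filter (0.0816) and with only the compared groups (0.0634). The ratio of Suclg2 to Sucla2 was 0.967, 0.873 and 1.06 in Tfam KO livers, beside a control range of 0.874 to 1.49, and only replicate 2 lay just outside it.

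Ogdh and Fh1 did not pass the test in either liver comparison on the TMM scale. Ogdh ranged from 163.3 to 232.9 CPM in controls and was at 246.5, 269.2 and 213.4 in Tfam KO livers (log2 fold change 0.24 ± 0.14, edgeR adjusted p = 0.21). Fh1 was at 246.0, 216.2 and 279.0 CPM in Tfam KO livers and at 361.7, 375.1, 309.0 and 307.4 in Mfn DKO livers, beside 245.2 to 348.1 in controls. The log2 difference of Fh1 in Tfam KO from Mfn DKO liver, -0.45 ± 0.16, did not pass the test (edgeR adjusted p = 0.14). No member was called by edgeR between the knockouts, where 0.294 percent of genes were. Fh1 and Idh3a had an unadjusted p under 0.05 there, and the DESeq2 Wald test called 1 member (Fh1). Fh1 shares its locus with Kmo on the opposite strand, a gene under 1 CPM in islets but at a mean of 369 CPM in control liver and 171 in Tfam KO liver. Without strand information for the counting, reads of the 2 genes cannot be told apart where they overlap.

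**Figure D4:**
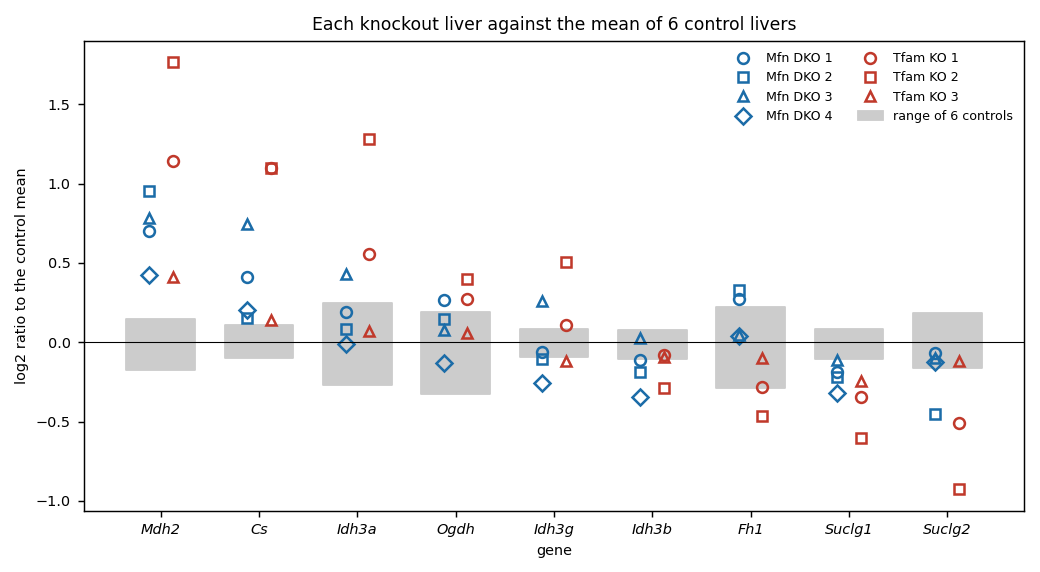
Log2 ratio of each knockout liver library to the mean of the 6 control livers for the 9 genes, with 1 symbol per library and a grey box for the range of the controls. For Mdh2 the Tfam KO libraries lie at 1.14, 1.77 and 0.41, and replicate 3 lies nearest to 0 of the 3 for 7 of the 9 genes, all but Idh3b and Idh3g.

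The 3 Tfam KO livers differed from each other in the genes that were called. Replicate 2 lay farthest from the control mean for Mdh2, Idh3a, Suclg1 and Suclg2, and replicate 3 lay nearest to it for these and for Cs. Without replicate 3 the log2 fold changes were 1.46 for Mdh2, 1.078 for Cs, 0.94 for Idh3a, -0.49 for Suclg1 and -0.73 for Suclg2, all 5 called as before, beside 41.8 percent of all genes. Without replicate 2 they were 0.82, 0.70, 0.33, -0.29 and -0.30, and 2 members were called, Mdh2 and Cs, with 14.5 percent of all genes. Without replicate 1 the 3 members that rose were called and 19.1 percent of all genes. Without replicate 3 the comparison of Tfam KO with Mfn DKO liver called 5 members and 24.0 percent of all genes: Mdh2 at 0.75, Cs at 0.69 and Idh3a at 0.78 were higher, and Suclg2 at -0.53 and Fh1 at -0.55 lower. The summed level of the 8 hepatocyte markers followed the same order of libraries. It was 59267, 22362 and 93164 CPM in replicates 1, 2 and 3, with none of the 8 at 0 in a whole group. Controls ran from 92182 to 136593 CPM and Mfn DKO livers from 77288 to 95916. In Tfam KO liver 29.3 percent of all genes were called, and 3 of the 8 hepatocyte markers fell and 2 of 5 fibroblast markers rose. Their part in the members' values was not tested. Replicates 2 and 3 were Xist-positive and replicate 1 was not, and within each of these sets Mdh2 differed from controls of the same set by 1.10 and 1.13 on the log2 scale.

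Of the comparisons, Tfam KO liver had the largest shift in the median of all genes when the scaling was changed. On total counts without TMM the median of all genes was at 0.46 in Tfam KO and 0.21 in Mfn DKO liver, and 47.9 and 11.8 percent of genes were called. On that scale Suclg1 was at 0.02 in Tfam KO liver in place of -0.39, and Suclg2 at -0.10, while Idh3g at 0.66 and Ogdh at 0.69 were called higher (edgeR adjusted p = 0.0115 and 0.00466), so that 5 members were called there too, all of them higher. The falls of Suclg1 and Suclg2 thus hold relative to the other genes of the library and not as a share of all counts. The 9 genes together took up 0.164 ± 0.003 percent of counts in control liver (SD, n = 6), 0.202 ± 0.014 in Mfn DKO liver and 0.252 ± 0.070 in Tfam KO liver.

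**Figure D5:**
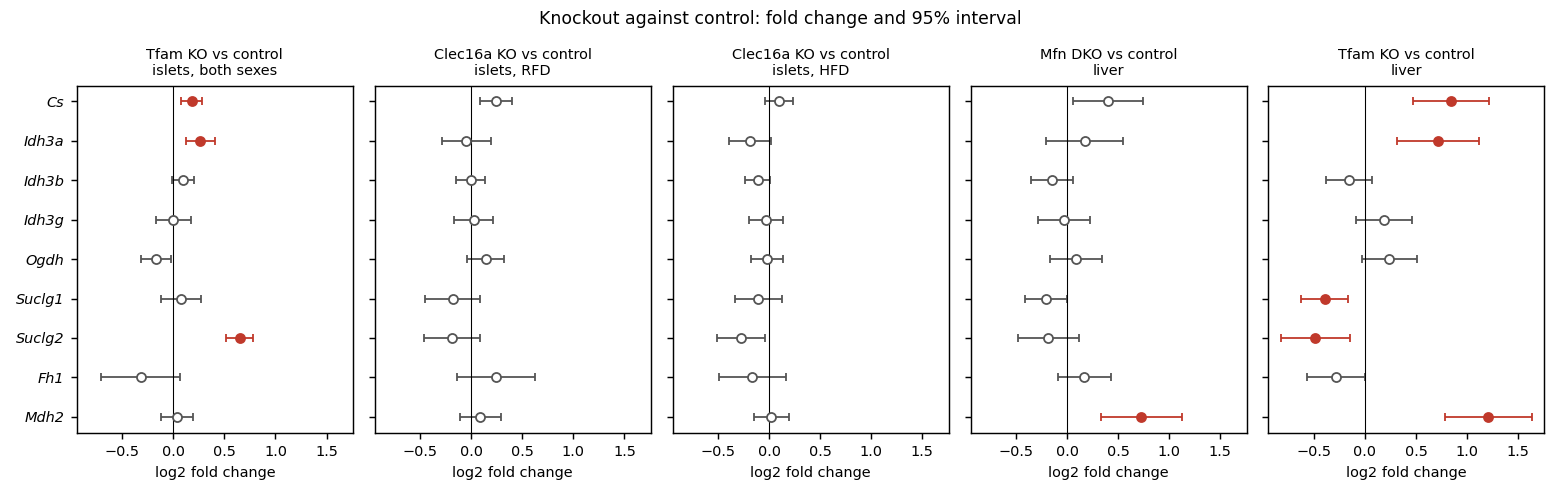
Log2 fold changes of the 9 genes (horizontal axis) with 95% intervals in 5 knockout comparisons, with filled red points where the adjusted p was 0.05 or less and open points elsewhere. Suclg2 lies at 0.65 in Tfam KO islets and at -0.49 in Tfam KO liver, while Mdh2 lies at 0.03 and 1.21.

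The other genes of the pathway were read from lists of related enzymes, chosen with earlier results of these data known. Their counts stand beside the share of all genes called: 20.9 percent in Tfam KO islets, 29.3 percent in Tfam KO liver, 9.87 percent in Mfn DKO liver and 7.52 and 9.57 percent in Clec KO islets on RFD and HFD. Of 10 other cycle enzymes tested in Tfam KO islets, none rose and none fell, although edgeR gave 2 of them an unadjusted p under 0.05. Their median log2 fold change was -0.01, as that of all genes. In Tfam KO liver 3 rose and 1 fell, with a median of -0.04 beside 0.03 for all genes. Idh2, the NADP-dependent isocitrate dehydrogenase, rose by 0.59 on the log2 scale and Ogdhl, a relative of Ogdh, by 5.35, while Sdhc, a membrane anchor of succinate dehydrogenase, fell by 0.46. No gene of this list was called lower without Tfam KO replicate 1, without replicate 2 or on total counts without TMM. In these 3 fits 3, 1 and 5 of the list were called higher, beside 19.1, 14.5 and 47.9 percent of all genes called. Ogdhl was at 1.11, 18.1 and 0.0894 CPM in the 3 Tfam KO livers and at most at 0.317 in controls, so that 2 of the 3 lay above all controls, and without replicate 2 its log2 fold change was 1.956 and did not pass the test (edgeR adjusted p = 0.0821). In Mfn DKO liver Idh2 rose by 0.46, and no other gene of the list was called. In Clec KO islets 2 of the 10 fell on RFD and 4 on HFD, and none rose, with medians of -0.19 and -0.20 beside -0.00 for all genes on either diet. Idh2 fell by 0.69 and Ogdhl by 0.76 on RFD, and on HFD Idh2 fell by 0.61, Ogdhl by 0.73 and Sdha, the catalytic subunit of succinate dehydrogenase, by 0.27. On HFD Ogdhl was at 95.7, 88.8, 88.0, 223.4 and 124.8 CPM under the KO label, beside 179.9 to 238.7 in controls. Replicate 4 thus lay with the controls for Ogdhl, as for Suclg2, and without it the log2 fold changes were -1.06 for Ogdhl and -0.77 for Idh2. The ratio of Ogdh to Ogdhl in TPM had a mean of 1.11 ± 0.14 in RFD controls and of 2.05 ± 0.12 in RFD islets labelled KO (SD, n = 4 each), while Ogdh itself was not called. All 4 endothelial markers rose in the KO-labelled islets on both diets, with summed levels of 255 to 352 CPM in the controls and 300 to 584 under the KO label, and their part in these values was not tested.

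Pyruvate enters the cycle through the pyruvate dehydrogenase complex, which kinases of the Pdk family switch off and Pdp phosphatases switch on. Of 14 such genes tested in Tfam KO islets 1 rose and 2 fell: Pdk1 rose by 1.18 on the log2 scale, and Pdp1 and Pcx, the pyruvate carboxylase, fell by 0.36 and 0.29. These 3 of 14 are a share close to that of all genes called, and the list's median was 0.00. In Tfam KO liver 3 of the 14 rose and 2 fell, with a median of -0.28 and Pdk4 at 38.5, 662.2 and 21.9 CPM beside 2.69 to 11.7 in controls (log2 fold change 5.27, edgeR adjusted p = 0.00216). Pdp1 rose in both liver comparisons, by 1.32 in Mfn DKO and 1.64 in Tfam KO. Of 17 cytosolic counterparts and side reactions, 5 rose and 2 fell in Tfam KO islets, with a median of 0.06, and Got1, the cytosolic aspartate aminotransferase, rose by 1.12 and Me3, a mitochondrial malic enzyme, fell by 1.06. In Tfam KO liver 4 rose and 4 fell, with a median of -0.32. Without Tfam KO replicate 1, 3 rose and 2 fell, beside 19.1 percent of all genes called. Without replicate 2, 3 rose and 1 fell, beside 14.5 percent. On total counts without TMM 5 rose and 1 fell, beside 47.9 percent. With all livers on the TMM scale Pck2, the mitochondrial phosphoenolpyruvate carboxykinase, rose in Tfam KO liver by 3.69. Idh1 and Mdh1, the cytosolic isocitrate and malate dehydrogenases, fell by 1.12 and 0.63. Mdh1 and Mdh2 thus moved in opposite directions in Tfam KO liver. Of 7 genes for lipoylation and complex II assembly, Lipt1 rose and Sdhaf4, a complex II assembly factor, fell by 0.40 in Tfam KO islets, and Sdhaf4 fell by 0.42 in Tfam KO liver. In the islets none was called higher without Tfam KO female 3 or without female 4, where 17.5 and 17.9 percent of all genes were called. On total counts without TMM 5 were higher there and none lower, beside 34.6 percent. In the livers none of the 7 was called without Tfam KO replicate 1 or without replicate 2, where 19.1 and 14.5 percent of all genes were. Carriers that move cycle intermediates across the inner membrane were not called in Tfam KO islets, and in Tfam KO liver 1 of 6 rose (Slc25a12) and 3 fell, among them Slc25a10, the dicarboxylate carrier, by 0.88 and Slc25a1, the citrate carrier, by 0.52. None of the 6 was called in liver without Tfam KO replicate 1 or without replicate 2. On total counts without TMM 1 was called higher and 1 lower in liver, beside 47.9 percent of all genes.

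The 9 genes did not vary as a block. Across the 13 livers 17 of the 36 pairs had a positive correlation of log2 CPM, with a median r of -0.14. Cs and Mdh2 had r = 0.89 and Suclg2 and Mdh2 r = -0.90. Of the 3 start regions printed, the one of Mdh2 held an NRF1 core, as did 16.6 percent of all windows. Those of Cs and Suclg2 held none of the strings. A link between these strings and the correlations was not tested. Across the 14 Tfam islet libraries 28 of 36 pairs were positive with a median of 0.25, and the closest pair was Idh3g and Mdh2 at 0.93. Across the 19 Clec islet libraries 23 of 36 were positive with a median of 0.17. These libraries share their knockout groups and scaling, so the values are descriptions. The genes outside the set that followed the mean log2 CPM of the 9 most closely were Prom1 (r = 0.97), Tmem147 (0.95) and Atp5g1 (0.95) among 10864 genes in the Tfam islets. They were Taldo1 (0.88), Atp5b (0.87) and Coa3 (0.85) among 11000 in the Clec islets, and Gng12, Pacsin2 and Ikbkg (0.95 each) among 9858 in liver.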

How the data were processed

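Gene counts and TPM were made by the authors with STAR 2.6.1b, RSEM 1.3.1 and featureCounts on GRCm38, per the submitters' processing notes, which also list FastQC, MultiQC and DESeq2; the strand setting of the counting was not given in the sources used here. The deposited counts are whole reads per gene, not normalized, and the deposited TPM are scaled for gene length and library size; the deposited CPM were not used for tests. CPM values printed here were computed from the deposited counts on TMM-scaled library sizes. GENCODE M21 held 55141 of the 55487 identifiers.

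One model per experiment was fitted with edgeR 4.0.16 under R 4.3.3 (TMM, filterByExpr on group, quasi-likelihood test), with sex as an added term where the Tfam islets were read over both sexes. P-values were adjusted by Benjamini-Hochberg over all genes tested and called at 0.05 or less. Intervals are 95% from 1.96 SE. The scripts were tested on simulated data. Samples were grouped by their labels. The alternatives were DESeq2 1.42.0 (size factors or Wald test), no filter, other terms, only the groups compared, each library left out in turn and a replicate block; total counts without TMM were chosen after seeing the data.

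The 9 genes and all lists were chosen with earlier results of these data known. All 9 genes are named. Of each pathway list at most the 3 called genes with the smallest adjusted p per comparison and direction could be named, and the 3 genes per experiment with the highest Pearson r to the members' mean log2 CPM, among genes with a mean CPM of at least 5. The values of 1 gene of the pathway lists are not reported here. Ratios, levels, correlations and motif matches are descriptions without a test.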

Additional observations from a re-analysis of the deposited data

Results flagged for a closer look

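Of 72 pairs of a gene and a group looked at for a sample far from the others of its group, 3 had one, and chance alone gives about 1 in 20. Ogdh was at 212.7 CPM in Tfam KO female 1, where the other KO females reached 252.9. Suclg2 was at 226.7 CPM in Mfn DKO liver 2, where the group reached 296.6. Mdh2 was at 139.1 CPM in Clec control HFD replicate 4, where the group reached 177.9. Each of these 3 was the lowest library of its group, and none of the 3 genes was called in the comparison of that group with its controls or knockouts.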

How the results depend on the processing

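Of 210 alternative counts of members called, 181 lay within 1.5 times the reported one, where 0 beside a reported 0 was counted as within. The tests between diets and those of the KO change between sexes or diets called 0.0406 percent of all genes or fewer. For these tests a count of 0 was nearly fixed in advance. The 181 therefore does not measure how firm the calls in the other comparisons are. On total counts without TMM the members called in Tfam KO islets were 7 over both sexes, 4 in females and 4 in males, and Suclg1 in Tfam KO liver turned from lower to 0.019 on the log2 scale. The DESeq2 Wald test called 2 members in Tfam KO females, 1 in Clec KO islets on RFD and 1 between the liver knockouts. With no filter on low counts 0 were called in Mfn DKO and 3 in Tfam KO liver, and with only the compared groups 2 and 2. Leaving out 1 library gave 1 to 4 calls in Tfam KO islets, 1 to 3 in females, 0 to 1 in Clec KO islets on HFD, 0 in all 10 fits of Mfn DKO liver, 2 to 5 in Tfam KO liver and 0 to 5 between the knockouts. The cause was not tested. Suclg2 in Tfam KO islets was called in 14 of 14 such fits and 7 of 7 others, Mdh2 in Tfam KO liver in 9 of 9 and 6 of 7, and Suclg2 there in 2 of 9 and 2 of 7. With the replicate number as a replicate block, 0 members were called in either liver comparison. Same-numbered libraries of different groups had a median r of 0.07 in Tfam islets, -0.02 in Clec islets and 0.09 in livers. Libraries with other numbers had -0.012, -0.012 and -0.045. In the same order, 5 of 13, 1 of 18 and 4 of 11 libraries were closest to their own number. The labels do not say whether equal numbers mark pairs, and these values cannot settle it. The lowest count behind any value of a member was 283 reads.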
